A study of Mus musculus with 72 samples.

Results

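Whether liver transcripts of *Scp2* KO and WT mice were higher around both changes of light than in the middle of both phases was read from 48 of 72 Illumina BeadChip arrays. The transition class held 24 arrays (t0, t2, t12 and t14) and the mid-phase class 24 arrays (t6, t8, t18 and t20), with 3 KO and 3 WT arrays at each time. The times were taken in pairs named dawn (t0 and t2), midday (t6 and t8), dusk (t12 and t14) and midnight (t18 and t20), so that each pair held 12 arrays, 6 per genotype. The other 24 arrays (t4, t10, t16 and t22) entered only the fit of a 12 h wave. A gene was called when dawn minus midday (the light phase difference) and dusk minus midnight (the dark phase difference) had the same sign and each had a Benjamini-Hochberg adjusted p under 0.05 in limma, with genotype as a covariate. The 12-hour contrast is the mean of both differences, all on the log2 signal scale, and a 24 h cosine cancels in it.

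KO mice lacked the whole *Scp2* locus, which encodes the lipid transfer protein SCP2 and the peroxisomal thiolase SCPx, and had been backcrossed into C57Bl/6. WT mice were C57Bl/6J. All were males of 10 to 12 weeks kept in 12 h of light and 12 h of darkness, with lights on at t0, and all were fed only at night during the 4 days before sacrifice. Both transitions were thus also the end and the start of access to food, and light and food cannot be told apart here. The line was a constitutive whole-body knockout, so no liver-specific loss was tested. The labels number 3 replicates per genotype and time without saying whether a number marks a day. For the harvest, the paper's results speak of 3 consecutive days and its methods of a 24 h period.

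The arrays were alike in brightness between the classes, with median signals of 96.1 to 109 at the transitions (middle value 99.6) and 96.1 to 112 in the mid-phases (middle value 101). Of the 4 *Scp2* probes, 2 read 6.0 ± 0.11 and 5.89 ± 0.12 in KO against 12.92 ± 0.12 and 12.23 ± 0.14 in WT (log2 signal, SD, n = 36 each), another 10.29 ± 0.32 in KO against 11.75 ± 0.23 in WT, and the last was dim in both (5.74 ± 0.07 in KO and 5.80 ± 0.07 in WT). *Scp2* had a 12-hour contrast of -0.01 ± 0.04 (SE), read from the probe that stayed bright in KO, which had the highest mean. On that probe the KO means were 10.65 at dawn and 10.29 at midday, but 9.85 at dusk and 10.3 at midnight. The WT means were 11.79, 11.83, 11.77 and 11.69 in the same order. The hepatocyte markers *Apoa1* and *Ttr* were among the brightest genes, while the *Alb* probe was dim on every array of both classes, at 5.84 to 6.33. A WT array at t12 stood apart, with a median Pearson correlation to the other arrays of 0.960 against 0.980 for the next. On that array the neutrophil marker *S100a8* read 11.8 against at most 6.61 on the other 47 arrays, and the averaged signal of 7 neutrophil markers was 9.56 against 5.85 to 6.16. Its averaged signals of 9 macrophage, 10 endothelial and 10 stellate markers, 8.86, 8.90 and 8.77, also lay above the highest values of the other arrays, 7.95, 8.62 and 8.46. Those of 7 periportal hepatocyte and 9 pancreas markers, 11 and 6.18, lay below the lowest values of the other arrays, 11.3 and 6.39. Each count below that moves by over 1.5 times without this array is given without it. In bulk RNA, fewer cells of a type and less RNA per cell cannot be told apart.

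Transcripts with 2 maxima a day are known in mouse liver mostly for the endoplasmic reticulum (ER) stress pathway. Misfolded proteins in the ER lumen activate the sensors IRE1, PERK and ATF6, and the factors downstream of them (spliced XBP1, ATF4 and cleaved ATF6) raise chaperones, glycosylation enzymes, the translocation machinery and the degradation route that returns misfolded proteins to the cytosol. The heat shock factors do the same for cytosolic chaperones.

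Few genes were higher or lower at both transitions. Of 16593 genes, 9 were called higher (0.0542%) and 9 lower (0.0542%), 18 in all (0.108%). Taken by itself, the light phase difference was called for 866 genes (412 higher at dawn, 2.48%, and 454 lower, 2.74%, together 5.22%) and the dark phase difference for 1436 genes (697 higher at dusk, 4.2%, and 739 lower, 4.45%, together 8.65%). The 18 genes were 2.08% of the calls in the light phase and 1.25% of those in the dark phase. Genes called in both phases with opposite signs numbered 434 (2.62% of all genes), which is 50.1% of the light phase calls and 30.2% of the dark phase calls. Of these 434, 199 were high at dawn and low at dusk (1.2%), and 235 were low at dawn and high at dusk (1.42%). The 12-hour contrast was called for 184 genes (1.11%), of which 55 (0.331%) had phase differences of opposite sign. When the larger p-value of each gene was adjusted over all genes instead, with a value of 1 for genes whose signs differed, limma called no gene, and the lowest adjusted p among the 18 was 0.704. At an unadjusted p under 0.05 in both phases, 58 genes were higher and 37 lower. At a threshold of 0.01, 3 genes were higher and 1 was lower (*Dusp1*, *Txndc11* and *Dnajb9*, and *Irgm2*). Leaving out each set of 12 arrays in turn gave 3 to 10 genes higher and 1 to 7 lower. The fewest were higher without KO set 4 (3 higher, 3 lower) and lower without KO set 5 (7 higher, 1 lower), with 5 higher and 3 lower without WT set 10, 10 higher and 4 lower without WT set 9, 7 higher and 5 lower without WT set 6, and 9 higher and 7 lower without KO set 6. With 16 groups of genotype by time in the fit, 20 genes were higher and 14 lower, and with median scaling 5 were higher and 9 lower.

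**Figure D1:**
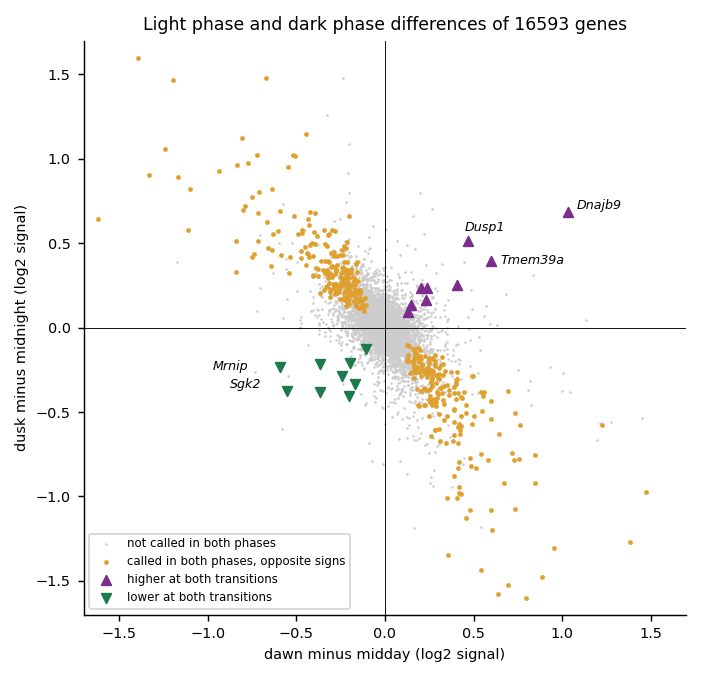
Each point is a gene, with dawn minus midday on the x axis and dusk minus midnight on the y axis (log2 signal, both genotypes, 12 arrays per pair of times). The 434 genes called with opposite signs lie in the upper left and lower right, the 9 genes higher at both transitions in the upper right and the 9 lower ones in the lower left; 3 genes lie beyond the axes.

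The 9 genes called higher exceeded midday at dawn and midnight at dusk in both genotypes, whose arrays together had made the call. *Dnajb9*, an ER co-chaperone of the HSP70 chaperone BiP and a target of XBP1, had the largest 12-hour contrast of the 18, 0.86 ± 0.12 (SE), a 1.81-fold difference (limma adjusted p = 1.4e-05). *Txndc11*, an ER thioredoxin-like protein that in human cells takes part in the disposal of misfolded glycoproteins, had 0.14 ± 0.02. *Alg2*, a mannosyltransferase that builds the N-glycan precursor, had 0.33 ± 0.05. *Srp68*, a subunit of the signal recognition particle, had 0.11 ± 0.02, and *Arfgap3*, which switches off the Golgi GTPase ARF1, had 0.20 ± 0.03. The remaining members were *Tmem39a*, an ER membrane protein (0.50 ± 0.08), *Dusp1*, a MAP kinase phosphatase induced by glucocorticoids and stress (0.49 ± 0.08), *Max*, the dimer partner of MYC (0.22 ± 0.04), and *Ccdc117* (0.24 ± 0.05).

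The start regions of these genes are shown because the ER stress factors act through known DNA motifs. That the members moved together was set by the rule of the call. RefSeq promoters (GRCm38.p6, from 250 bases before to 50 bases after each start) were at hand for 6 of the 9 genes called higher, 7 of the 9 called lower and 13336 of all genes measured. A gene counted when any of its promoters held the motif on either strand. The E-box CACGTG was in 3 of 6 promoters of genes called higher (50%) against 9.68% of all genes, and the cAMP response element TGACGTCA in 2 of 6 (33.3%) against 2.7%. The unfolded protein response element TGACGTGG, added after the genes were known, was in 1 of 6 (16.7%) against 0.945%. The ER stress element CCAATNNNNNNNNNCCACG (0.135% of all genes), the D-box TTATGTAA or TTACGTAA (1.16%) and the heat shock element GAANNTTCNNGAA (0.57%) were in none of the 6. No promoter of the 7 genes called lower held any of these motifs. The cAMP response element shares TGACGT with the unfolded protein response element. These shares are a description of few genes, and they were lower in a larger set. Of the 66 genes higher by a looser rule (12-hour contrast past the threshold, both phases with the same sign) 57 had promoters, of which 17.5% held the E-box, 7.02% the cAMP response element, 3.51% the unfolded protein response element, and 1.75% each the D-box and the heat shock element. Of the 48 promoters of genes lower by that rule, 2 held the E-box and 2 the cAMP response element (4.17% each). In the windows below, on the strand of the gene, capitals mark the matches: the E-box in *Dnajb9* and *Max*, the cAMP response element and then the E-box in *Dusp1*, the cAMP response element in *Tmem39a* and the unfolded protein response element in *Txndc11*.
*Dnajb9* chr12:44210069-44210218 (-): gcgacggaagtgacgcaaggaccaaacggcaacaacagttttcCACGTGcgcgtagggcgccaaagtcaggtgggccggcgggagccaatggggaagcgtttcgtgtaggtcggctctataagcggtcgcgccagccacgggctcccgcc
*Dusp1* chr17:26508473-26508622 (-): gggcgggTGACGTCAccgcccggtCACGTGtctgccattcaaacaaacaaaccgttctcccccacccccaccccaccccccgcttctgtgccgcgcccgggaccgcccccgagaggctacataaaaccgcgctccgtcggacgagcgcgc
*Max* chr12:76962239-76962338 (-): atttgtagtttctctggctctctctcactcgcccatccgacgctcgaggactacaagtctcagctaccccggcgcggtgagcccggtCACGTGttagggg
*Tmem39a* chr16:38562724-38562833 (+): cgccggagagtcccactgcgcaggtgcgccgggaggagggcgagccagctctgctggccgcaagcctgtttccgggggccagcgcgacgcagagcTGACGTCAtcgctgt
*Txndc11* chr16:11134533-11134682 (-): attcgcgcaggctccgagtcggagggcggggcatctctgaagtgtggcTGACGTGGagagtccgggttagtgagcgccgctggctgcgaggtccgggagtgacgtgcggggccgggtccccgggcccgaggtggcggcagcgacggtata
In *Max* the E-box spans the start site used, and in *Tmem39a* the match lies within the first bases after the start used. For *Tmem39a*, *Max* and *Txndc11* these starts lie inside the annotated genes, whose outer starts are at chr16:38558698, chr12:76962323 and chr16:11134645.

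*Dnajb9* log2 signals ran from 8.52 to 9.80 at dawn (median 9.51) against 7.70 to 9.35 at midday (median 8.23), and from 8.29 to 9.87 at dusk (median 9.25) against 8.0 to 8.95 at midnight (median 8.53). The ranges overlapped in both phases, although 94.4% of the pairs of a dawn and a midday array and 87.5% of the pairs of a dusk and a midnight array had the transition array higher. Its means by time had maxima at t2 (9.39 ± 0.47, SD, n = 6) and t14 (9.38 ± 0.53) and minima at t6 (8.22 ± 0.29) and t20 (8.32 ± 0.24). The means were not smooth around lights off, with 9.14 ± 0.50 at t10 and 8.94 ± 0.40 at t12, below t14. The dip came from KO, with 9.40 ± 0.53 at t10, 8.89 ± 0.53 at t12 and 9.35 ± 0.78 at t14, against 8.88 ± 0.37, 8.99 ± 0.34 and 9.41 ± 0.28 at these times in WT (SD, n = 3 each). The other *Dnajb9* probe was dim (mean 5.91) and had a 12-hour contrast of -0.01. For the brighter probe, the amplitude of the 24 h component, 0.11, was small beside that of the 12 h component, 0.50 ± 0.07 (SE).

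*Tmem39a* ran from 7.63 to 8.62 at dawn (median 8.0) against 7.07 to 8.21 at midday (median 7.31), and from 7.38 to 8.26 at dusk (median 7.86) against 6.98 to 7.84 at midnight (median 7.40). Its dusk level came from t14, with 8.09 ± 0.12 there and 7.56 ± 0.16 at t12, which lay below the 7.73 ± 0.16 of t10 (SD, n = 6 each). *Alg2* ran from 6.89 to 7.35 at dawn (median 7.10) against 6.31 to 7.18 at midday (median 6.72), and from 6.72 to 7.18 at dusk (median 7.01) against 6.49 to 6.90 at midnight (median 6.77). For these 2 genes, too, the 24 h amplitudes of 0.04 were far below the 12 h amplitudes of 0.29 and 0.19.

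*Dusp1* had a daily rhythm beside the 12 h difference. It ran from 8.17 to 8.77 at dawn (median 8.45) against 7.36 to 8.36 at midday (median 8.04), and from 8.98 to 10.15 at dusk (median 9.55) against 8.42 to 9.65 at midnight (median 9.01). Every dusk array thus lay above every dawn array. The 24 h amplitude of *Dusp1*, 0.62, exceeded its 12 h amplitude of 0.29, and its light and dark phase differences were alike at 0.47 ± 0.11 and 0.51 ± 0.11 (SE).

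The dimmer members moved less. *Srp68* (light phase 0.13, dark phase 0.09), *Arfgap3* (0.23 and 0.17) and *Txndc11* (0.14 and 0.14) had mean log2 signals of 6.22 to 6.34, close to the background, so that their differences are understated. Of the other *Txndc11* probes, that of like brightness had a 12-hour contrast of 0.15 and the dimmer one 0.03. *Max* (0.20 and 0.23) and *Ccdc117* (0.24 and 0.24) lay higher, with means of 7.58 and 7.20. The other *Ccdc117* probe (mean 5.82) had 0.02, and the other *Max* probe (mean 5.97) 0.04.

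**Figure D2:**
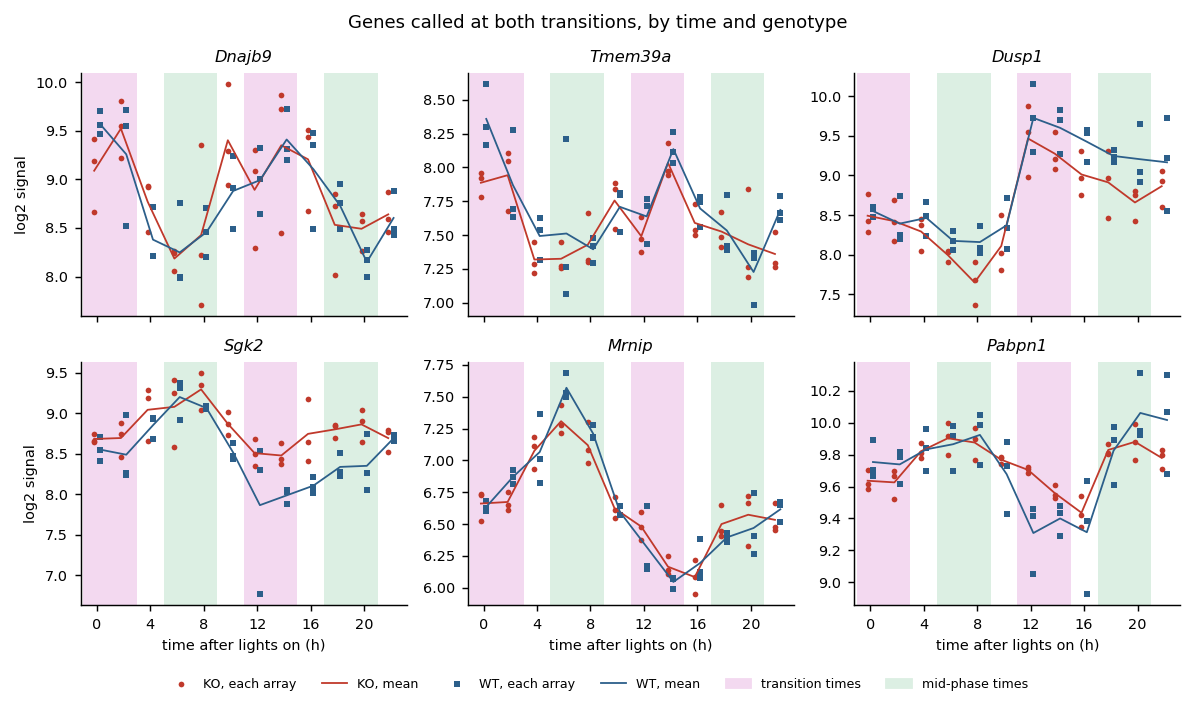
Log2 signal of each array (KO circles, WT squares) and the mean of 3 arrays per genotype (lines) by time after lights on, with transition times (purple) and mid-phase times (green) shaded. *Dnajb9* and *Tmem39a* are high near t0 to t2 and at t14. At t12 the mean lies below t10 in KO for *Dnajb9* and in both genotypes for *Tmem39a*. *Dusp1* is highest from t12 on, and *Sgk2*, *Mrnip* and *Pabpn1* are lower at both transitions. The WT point of *Sgk2* at 6.77 (t12) is the array that stood apart.

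None of the 9 genes called lower at both transitions was on a pathway list, so the lists could not show whether they share a pathway. *Sgk2*, a kinase of the serum and glucocorticoid regulated family, had the largest fall, -0.47 ± 0.09 (SE, adjusted p = 0.0014), followed by *Mrnip*, which binds the MRN DNA repair complex in human cells (-0.41 ± 0.05). *Irgm2*, an interferon-induced GTPase, had -0.38 ± 0.06. *Pabpn1*, the nuclear poly(A)-binding protein that sets poly(A) tail length, had -0.30 ± 0.04, and *Dido1*, a chromatin-associated protein, -0.29 ± 0.05. The other 4 were *Casp9*, the initiator caspase of the mitochondrial death pathway (-0.26 ± 0.05), *Thtpa*, a thiamine triphosphatase (-0.25 ± 0.03), *Lmnb1*, lamin B1 of the nuclear envelope (-0.20 ± 0.04), and *Rgs12*, a regulator of G protein signalling (-0.12 ± 0.02).

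*Sgk2* ran from 8.24 to 8.97 at dawn (median 8.65) against 8.58 to 9.49 at midday (median 9.17), and from 6.77 to 8.68 at dusk (median 8.36) against 8.05 to 9.04 at midnight (median 8.67). Its lowest dusk value was the WT array that stood apart, without which the 12-hour contrast was -0.41 and the larger adjusted p of both phases 0.082, so the call was lost. The other *Sgk2* probe (mean 7.82) had -0.41 with all arrays. *Dido1* (larger adjusted p = 0.11) and *Ccdc117* (0.051) also lost their call without that array, and the other 15 genes kept it. *Mrnip* was the only member with separate ranges in a phase, 6.52 to 6.93 at dawn against 6.98 to 7.69 at midday, while its dusk range of 5.99 to 6.65 overlapped the midnight range of 6.26 to 6.74. Its light phase difference, -0.59 ± 0.07, was larger than its dark phase difference, -0.23 ± 0.07 (difference -0.36, limma adjusted p = 0.011), and its 24 h amplitude of 0.48 exceeded the 12 h amplitude of 0.24. *Pabpn1* ran from 9.52 to 9.89 at dawn (median 9.68) against 9.70 to 10.05 at midday (median 9.92), and from 9.05 to 9.72 at dusk (median 9.50) against 9.61 to 10.31 at midnight (median 9.89). *Irgm2* ran from 8.05 to 8.97 at dawn (median 8.33) against 8.34 to 9.37 at midday (median 8.78), and from 7.81 to 8.56 at dusk (median 8.06) against 8.14 to 8.78 at midnight (median 8.51). The further probes of *Casp9*, *Dido1* and *Lmnb1* lay between 5.76 and 6.38 and had 12-hour contrasts of -0.02 to 0.01.

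For all 18 genes the mean of the 4 times outside both classes lay between the class means. The genes had been chosen for class means that lie apart, so this place was largely set by the choice. All 18 also passed the F-test of a 12 h wave fitted beside a 24 h wave on 72 arrays, which shares 48 arrays with the calls. The fitted maxima of the genes called higher lay between 0.54 and 1.59 h and again between 12.5 and 13.6 h after lights on. Those of the genes called lower lay between 6.67 and 7.87 h and between 18.7 and 19.9 h. The rule of the call asks for high or low values at the transition times, so it largely set these maxima. The 12 h amplitude exceeded the 24 h amplitude in 11 of the 18 (7 called higher and 4 called lower), against 211 of all 803 genes past the F-test. A 24 h wave enters the light and dark phase differences with opposite signs. Asking for the same sign thus favours genes with a small 24 h part, and the count is partly set by the rule. Just inside the threshold were *Dido1* (larger adjusted p = 0.0486) and *Ccdc117* (0.0467), and just outside it *Sphk2* (0.0505, 12-hour contrast -0.36), *Abcf3* (0.0537, 0.14), *Ythdf1* (0.0558, 0.16) and *Vasn* (0.0569, 0.35).

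Among 652 measured genes of 25 pathway lists, 4 were called higher and 0 lower, against 0.0542% in each direction over all genes. *Dnajb9* and *Txndc11* were 2 of 25 ER chaperones and folding enzymes, *Srp68* was 1 of 49 genes of the translocon and of COPII and COPI transport, and *Dusp1* was 1 of 29 immediate early genes and 1 of 16 glucocorticoid-responsive genes. The other 21 lists held no call, among them core clock genes (0 of 21), cholesterol synthesis (0 of 19), cytosolic ribosomal proteins (0 of 48) and the respiratory chain (0 of 47). The median 12-hour contrast was 0.00 in the ER chaperone list, 0.03 in the list of ER-associated degradation and ER stress signalling, and -0.03 in the cytosolic heat shock list, against 0.00 over all genes. None of 96 measured markers of 13 cell type lists was called, and none passed the limma test of the 12-hour contrast (6 at an unadjusted p under 0.05). By the looser rule 66 genes were higher (0.398%) and 63 lower (0.38%). Those of the lists were *Herpud1* (0.41), *Eif2ak3*, which encodes PERK (0.16), and *Creb3l2* (0.15) of ER-associated degradation and stress signalling, *Bag3* (0.59), *Dnajb1* (0.57) and *Hspa1a* (0.21) of the heat shock list, *Ddit3* of the ATF4 list (0.22), *Atg13* (0.22) of autophagy and *Mx2* (-0.14) of the interferon response, besides the 4 genes above. *Hspa5*, which encodes BiP and whose probe was dim (mean 6.27), had 0.08 ± 0.06 (SE), and *Xbp1* 0.08 ± 0.08, and neither passed (adjusted p = 0.77 and 0.84).

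Many ER and heat shock genes had a 12 h wave whose maxima fell after the transitions, so that the transition contrast read little of it. The 24 h wave passed for 3879 genes (23.4%) and the 12 h wave for 803 (4.84%), and in 211 of these (1.27% of all genes) its amplitude exceeded that of the 24 h wave. It passed for 10 of 25 ER chaperones, 8 of them with the first maximum between 2 and 6 h after lights on and 2 before 2 h. Of the heat shock list 13 of 26 passed, 10 of them with a maximum between 2 and 6 h, as did 9 of 49 genes of the translocon and vesicle list, 8 with a maximum there. The 12 h amplitude exceeded the 24 h amplitude in 4 of these 13 heat shock genes, in 7 of the 10 ER chaperones and in 7 of the 9 translocon and vesicle genes. Over all 803 genes, 308 had the first maximum between 2 and 6 h. *Creld2*, an ER stress-induced protein of the ER lumen, had the largest amplitude among the 211 genes, 0.81 ± 0.09 (SE), with maxima at 3.64 and 15.6 h. *Hsph1*, a cytosolic HSP110 chaperone, had 0.65 ± 0.07 (3.38 and 15.4 h), and *Syvn1*, the ubiquitin ligase of ER-associated degradation, 0.52 ± 0.06 (3.32 and 15.3 h).

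*Creld2* means were 8.81 ± 0.66 at t0, 9.48 ± 0.66 at t2 and 7.58 ± 0.43 at t8, and then 7.69 ± 0.34 at t12, 9.0 ± 0.58 at t14 and 9.85 ± 0.23 at t16 (SD, n = 6 each). Its light phase difference was 1.20 and its dark phase difference -0.67, since t12 lay near the minimum. The same held for *Syvn1* (1.0 and -0.37) and *Hsph1* (1.27 and -0.56). The core clock genes passed the 12 h wave in 11 of 21, none of them with a 12 h amplitude above the 24 h amplitude. *Dbp*, for example, had 12 h and 24 h amplitudes of 0.56 and 2.49, with phase differences of -3.70 and 3.01, so that a 12 h wave also stood in genes with a single daily maximum.

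**Figure D3:**
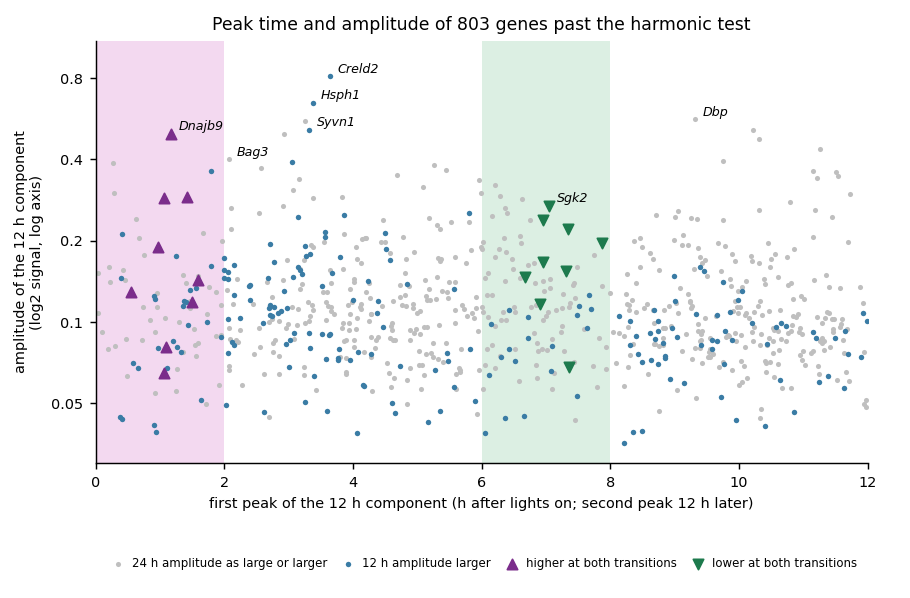
Each point is 1 of the 803 genes past the test of the 12 h wave, with its first maximum (h after lights on) on the x axis and its 12 h amplitude (log2 signal, log axis) on the y axis. The genes called higher lie between 0.54 and 1.59 h and those called lower between 6.67 and 7.87 h, places largely set by the rule of the call. *Creld2*, *Hsph1* and *Syvn1*, which were not called, lie between 3.32 and 3.64 h.

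The dusk pair held times that differed. Without t12, 48 genes were called higher (0.289%) and 21 lower (0.127%), and 15 of the 18 kept their call. Without t14, 1 was higher and 2 were lower, and leaving out any of the other 6 times gave 2 to 8 higher and 1 to 5 lower. The 48 genes held 3 of 34 genes of ribosome biogenesis (*Nop56*, a core protein of small nucleolar particles, *Polr1a*, the largest subunit of RNA polymerase I, and *Nob1*, the nuclease that finishes the small rRNA), 2 of 26 of the heat shock list (*Bag3* and *Dnajb1*, co-chaperones of HSP70) and *Ddit3*, which encodes the stress factor CHOP. *Bag3* stood at 9.07 ± 0.28 at t12 and 10.42 ± 0.22 at t14, *Dnajb1* at 8.50 ± 0.20 and 9.39 ± 0.16, *Nop56* at 6.62 ± 0.20 and 7.07 ± 0.21, and *Polr1a* at 7.70 ± 0.18 and 8.10 ± 0.19 (SD, n = 6 each). With t14 alone as dusk the dark phase differences were 0.72 for *Bag3*, 0.76 for *Dnajb1*, 0.33 for *Nop56* and 0.38 for *Polr1a*, and the light phase differences 1.13, 0.84, 0.24 and 0.22. *Rcan1*, an inhibitor of calcineurin, had a dark phase difference of 0.73 and a light phase difference of 0.68 by the same rule. These genes were named after their values were seen.

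**Figure D4:**
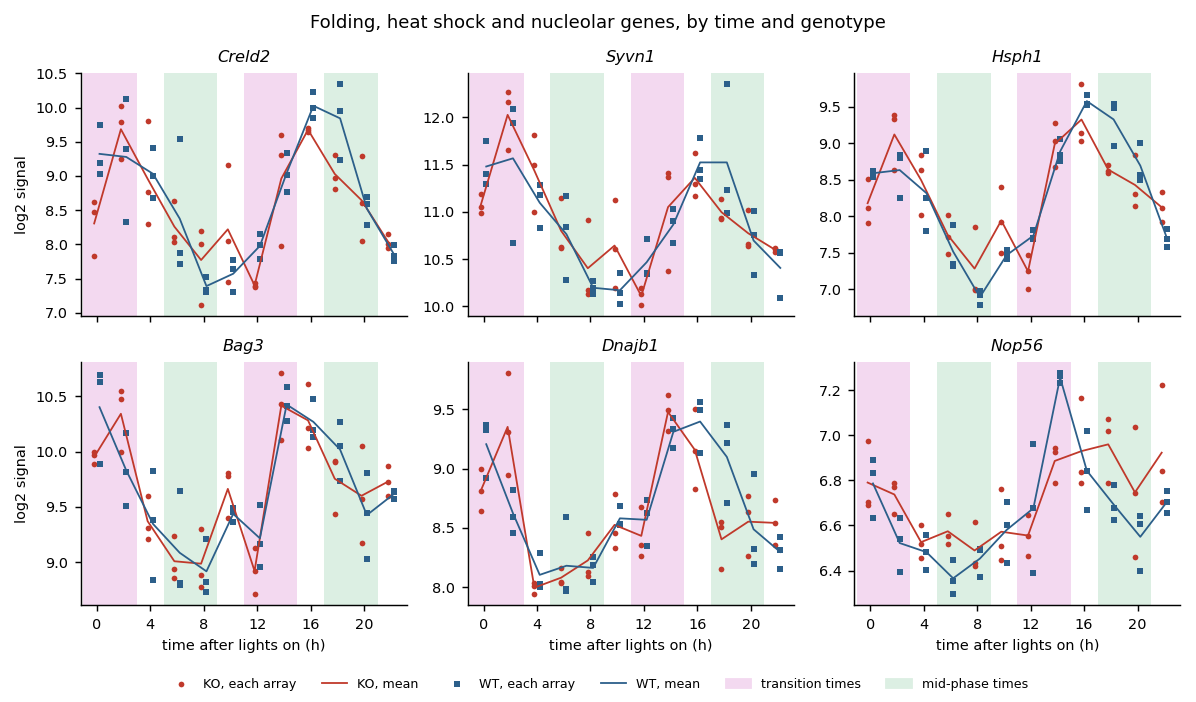
Log2 signal of each array (KO circles, WT squares) and the mean of 3 arrays per genotype (lines) by time after lights on, with transition times (purple) and mid-phase times (green) shaded. *Creld2*, *Syvn1* and *Hsph1* are near their minimum at t12 and high at t16, and *Bag3*, *Dnajb1* and *Nop56* are higher at t14 than at t12.

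By genotype, both phase differences of all 18 genes had the sign of the call in KO and in WT. The arrays of both genotypes had made the call together, so this agreement was largely set by the choice of genes. No difference between the genotypes passed. With 12 arrays per phase in each genotype few genes passed within a genotype. In KO 2 genes were called higher (0.0121%) and 0 lower, *Dusp1* (light phase 0.64, dark phase 0.59) and *Txndc11* (0.21 and 0.16). In WT 0 were called higher and 1 lower (0.00603%), *Dido1* (-0.35 and -0.34). At an unadjusted p under 0.05 in both phases the counts were 21 higher and 11 lower in KO, and 30 higher and 29 lower in WT. With the set of 12 arrays named in the signal columns as a replicate block, *Pabpn1* was also called lower in KO (1 gene), and *Alg2* and *Ik* were called higher in WT (2 genes). Without the WT array that stood apart, 2 were higher and 0 were lower in WT. The test of the 12-hour contrast called 6 genes in KO (0.0362%) and 49 in WT (0.295%). All 6 had the same sign in WT, and 46 of the 49 had the same sign in KO, against 54.7% of all genes. Of the 49, 40 had WT phase differences of the same sign, 14 positive and 26 negative, most of which did not pass in each phase, since the test of both phases called 0 higher and 1 lower in WT. The medians of the 14 were 0.15 in KO and 0.33 in WT, and those of the 26 were -0.12 in KO and -0.29 in WT, where the WT values had chosen the genes. KO minus WT passed for 0 of 16593 genes by limma, with 680 genes at an unadjusted p under 0.05 (4.1%) and a lowest adjusted p of 0.949.

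Among the 18 genes the 12-hour contrast was smaller in size in KO than in WT in 13, against 51.7% of all genes. *Dnajb9* had 0.80 ± 0.17 in KO and 0.91 ± 0.17 in WT (SE), *Tmem39a* 0.41 ± 0.11 in KO and 0.58 ± 0.11 in WT, and *Sgk2* -0.42 ± 0.12 in KO and -0.51 ± 0.12 in WT. *Dusp1* had 0.61 ± 0.11 in KO and 0.37 ± 0.11 in WT, and *Txndc11* 0.18 ± 0.03 in KO and 0.10 ± 0.03 in WT. *Casp9* had the largest gap relative to its error, -0.16 ± 0.07 in KO and -0.37 ± 0.07 in WT (KO minus WT 0.21 ± 0.09, unadjusted p = 0.029, adjusted p = 1.0), and was the only member at an unadjusted p under 0.05. The 12 h amplitude was smaller in KO in 502 of the 803 genes past the wave test (62.5%), with medians of 0.099 in KO and 0.118 in WT, against 52.5% of all genes. The 12-hour contrast of these genes was smaller in size in KO in 443 (55.2%), against 51.7% of all genes. Among the 20 genes with the largest 12 h amplitude above their 24 h amplitude it was smaller in KO in 19, for example 0.72 in KO and 0.91 in WT for *Creld2* and 0.61 in KO and 0.69 in WT for *Hsph1*, with *Dnajb1* as the exception (0.42 in KO and 0.31 in WT). Fitted within a genotype, the 12 h wave passed for 200 genes in KO (1.21%) and 247 in WT (1.49%). The test of KO against WT waves called 0 genes, with 629 at an unadjusted p under 0.05 (3.79%). These counts of genes share their arrays and were not tested. The times of the maxima of the 18 genes differed between KO and WT by a median of 0.24 h and by at most 0.73 h. The median was 0.57 h for the 803 genes past the wave test and 2.38 h for all genes. The 18 had been chosen on the arrays of both genotypes for high or low values at the same times, which favours close maxima.

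**Figure D5:**
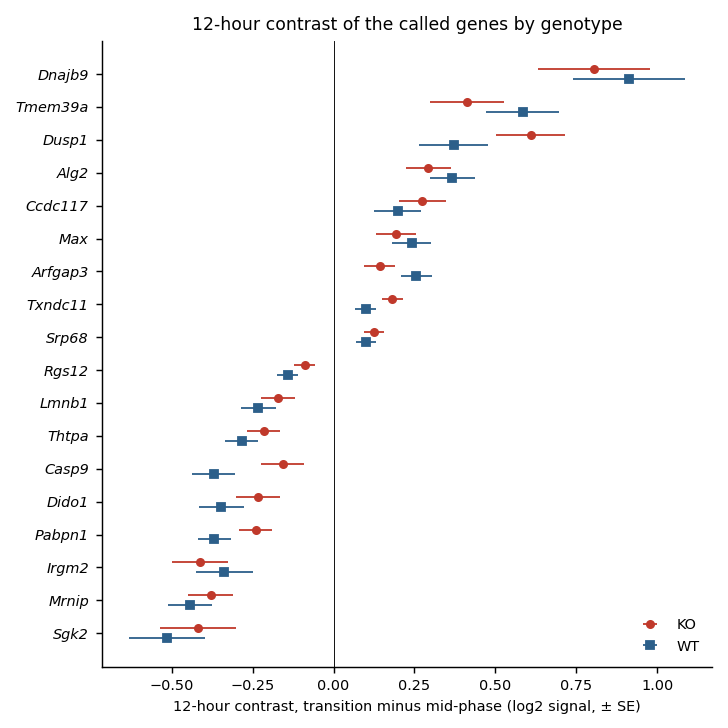
12-hour contrast (transition minus mid-phase, log2 signal, x axis) of the 18 called genes in KO (circles) and WT (squares), with standard errors from limma (24 arrays per genotype). All 36 values have the sign of the call, which was made on the arrays of both genotypes together. The error bars of *Dnajb9*, 0.80 in KO and 0.91 in WT, overlap.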

How the data were processed

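Liver RNA of 72 mice was read on Illumina BeadChips. The authors deposited the intensity of each probe as an average signal, not normalized, and a table of log2 values normalized with Partek (version not given in the sources used here), each column of which has a median of 6.69. The sources give no genome build, detection p-values or chip positions. The intensities were corrected with normexp (offset 50), quantile normalized and taken as log2 in limma 3.58.1 (R 4.3.3, with the data.table package, version 1.17.8). Of 25697 probes, 23978 had 1 gene name, and the probe with the highest mean stood for its gene, which gave 16593 genes. No dim gene was left out of the tests, and differences of dim genes are understated.

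Pairs of times and genotype were fitted on 48 arrays, 8 groups of genotype and pair for the comparison of genotypes, and 12 h and 24 h waves with genotype on 72 arrays. All p-values were adjusted with the Benjamini-Hochberg method over all genes. They measure the spread between mice as labelled, to which the fits by pairs add differences between the times within a pair. The fit with genotype as a covariate also adds genotype differences that vary between pairs, and the wave fits add departures from the waves. The alternative with 16 groups of genotype by time leaves only the spread between mice of the same genotype and time. It called 20 genes higher and 14 lower, against 9 and 9 in the main fit. The genes to name were the 10 largest rises and falls among called genes with that sign in both genotypes, up to 3 called members per list, genes past the KO minus WT test, *Scp2*, *Hspa5*, *Ddit3* and *Xbp1*. Others were named after their values were seen. The members and lists were chosen with earlier results of these data known. Signal columns name sets of 12 arrays (KO 4, 5 and 6, WT 6, 9 and 10) that no label explains. In the log2 values the authors deposited, deviations of transition and mid-phase arrays with the same label number correlated at 0.163 to 0.474 within a genotype and at -0.184 to 0.009 between genotypes, so numbers pair times within a genotype only. The alternatives were the deposited values, no background correction, median scaling, a filter on dim genes (lowest 25%), every probe, a threshold of 0.01, 16 groups of genotype by time, sets or numbers as a replicate block, and leaving out the array that stood apart, each set and each time. The tests were tried on simulated data. Some items are not reported here.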

Additional observations from a re-analysis of the deposited data

Results flagged for a closer look

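In 9 of 144 groups of 6 arrays (18 genes, 4 pairs of times, 2 genotypes; 6.25%) 1 array lay far from the other 5 by Dixon's ratio, where chance flags about 1 in 20. *Dnajb9* read 8.52 on a WT array at t2 against 9.47 to 9.71 on the others of WT dawn, and 9.35 on a KO array at t8 against 7.70 to 8.26 on the others of KO midday, both against its 12 h pattern. *Tmem39a* read 8.21 on a WT array at t6 against 7.07 to 7.48. *Sgk2* read 6.77 on the WT array at t12 that stood apart, against 7.88 to 8.53. *Dido1* read 7.21 on a KO array at t12 against 6.74 to 6.85. *Mrnip* read 6.65 on a WT array at t12 against 5.99 to 6.17, and 6.74 on a WT array at t20 against 6.26 to 6.43. *Rgs12* read 6.11 on a WT array at t8 against 6.26 to 6.30, and *Thtpa* 8.74 on a KO array at t18 against 8.49 to 8.57.

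Of 39 named genes, 10 had a light phase difference that differed from the dark phase difference (limma, adjusted p below the threshold of 0.05). Light phase minus dark phase was -6.71 for *Dbp* (adjusted p = 3.4e-16), -2.26 for *Nr1d1* (1.0e-16), 1.86 for *Creld2* (0.00057), 1.83 for *Hsph1* (1.3e-05), 1.37 for *Syvn1* (0.00013) and 1.09 for *Bag3* (0.0029). It was 0.62 for *Hspa8* (0.0495), 0.46 for *Hyou1* (0.00085), 0.36 for *Txndc5* (0.020) and -0.36 for *Mrnip* (0.011), the only called gene among them.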

How the results depend on the processing

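Over the 18 genes and 26 alternatives, the call was kept in 284 of 468 cases and lost in 184. The authors' values and no background correction each left 8 genes higher and 7 lower, with 15 of the 18 genes kept. Median scaling gave 5 higher (11 of 18 kept) and 0 higher in KO. A threshold of 0.01 gave 3 higher, 1 lower, 62 by the 12-hour contrast, 456 by the 12 h wave, 0 higher in KO and 0 lower in WT. With 16 groups of genotype by time the counts were 20 higher, 14 lower and 285 by the 12-hour contrast, and 3 higher and 3 lower in WT. The filter on dim genes gave 4 higher in WT, and every probe on its own 2 lower in WT. Either replicate block gave 1 lower in KO, the block by set 2 higher in WT, and no other count of calls moved by over 1.5 times under a block. Without the WT array that stood apart, WT had 2 higher and 0 lower. Adjusting the larger p gave 0 higher and 0 lower, and the looser rule 66 higher and 63 lower. Without a time, there were 1 lower (t0), 5 lower (t2), 2 lower (t6), 5 lower (t8), 48 higher and 21 lower (t12), 1 higher and 2 lower (t14), 4 lower (t18), and 2 higher and 3 lower (t20). Leaving out each set of 12 arrays gave 3 to 10 higher, 1 to 7 lower, 63 to 143 by the 12-hour contrast, 0 to 2 higher and 0 to 1 lower in KO, 0 to 1 higher and 0 to 1 lower in WT, 0 by KO minus WT and 459 to 768 by the 12 h wave. Of the genes called higher, *Dnajb9* kept its call in 23 of 26 alternatives and *Dusp1* and *Alg2* in 22, whereas *Ccdc117* kept it in 6. Of those called lower, *Irgm2* kept it in 21 and *Dido1* in 7. KO minus WT gave 0 genes under each alternative it was run for, which leaves out the single times and the other call rules.

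Signal over background limits the dim members, as no detection values come with the signals. The call asks for 2 adjusted p-values under 0.05 and is not itself an adjusted p. Times 2 h apart give maxima only through the fitted wave, and 3 arrays per genotype and time set the precision. Light, food and time of day cannot be told apart.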
